A study of Rattus norvegicus with 15 samples.

Results

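The glycolysis and hypoxia-response module described here is a list of 33 genes chosen by name: the enzymes that take up glucose and turn it into lactate, the kinases that set the rate of that route, and the hypoxia-inducible factors with some of their targets. A row was read wherever the gene name in the tables was on the list, which gave 32 of 30454 genes. Of these, 31 had a mean of at least 1 FPKM (fragments counted on a gene, scaled to its length and to the library) over all libraries and were tested among 14416 genes. Gapdh had no row of that name and was not analysed here, and Aldoa lay under the minimum.

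Polyadenylated RNA was sequenced from the femurs of female Sprague-Dawley (SD) rats, which were 8 weeks old at the start, in 5 groups of 3 libraries. Sham rats lost a piece of fat in place of the ovaries and received saline. OVX rats had both ovaries removed, a common model of bone loss after the menopause, and also received saline. The other 3 groups were ovariectomized too and received, after 6 weeks of recovery and for 8 weeks, walnut (Juglans regia L.) at 1.6 g/kg per day in group J, Psoralea corylifolia Linn. at 2.4 g/kg per day in group P, or both at 4.0 g/kg per day in group PJ. The series asks how the combination acts on bone loss after ovariectomy, so OVX was set against Sham, each treatment against OVX, and the treatments against each other. Nothing in the labels ties a library to its own animal, and the p-values therefore cover only library-to-library spread.

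Glycolysis splits glucose into pyruvate in the cytoplasm, and pyruvate either enters the mitochondria or becomes lactate. Most steps have several isoforms that mark tissues: red cells, which lose their mitochondria, rely on glycolysis and divert part of it through bisphosphoglycerate, the compound that loosens the hold of hemoglobin on oxygen, while muscle carries its own enolase and phosphofructokinase. When oxygen is low, prolyl hydroxylases stop marking the alpha subunits of the hypoxia-inducible factors for destruction, and the factors raise transcription of glucose transporters, glycolytic enzymes, angiogenic factors and mitophagy genes through the DNA core ACGTG or GCGTG.

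That core was looked for in the promoters of the members, taken from RefSeq on assembly GRCr8 as 250 bases before to 50 after the first listed start of a gene, with both strands read. It was found in 18 of the 31 members with an entry (58.1%), beside 11788 of all 27457 promoters (42.9%). Pgk1 and Bnip3l had no entry. Counted separately, ACGTG was present in 14 members (45.2%) and 19.7% of all promoters, and GCGTG in 14 members (45.2%) and 31.1% of all promoters. A promoter with both forms is in both counts. GATAA, the core bound by GATA factors of red cell precursors, was present in 7 members (22.6%) and 26.1% of all promoters, and CACCC, the core bound by erythroid Kruppel-like factors, in 21 members (67.7%) and 55.1%. A CACGTG counts as a match on each strand. A match describes letters in this window and is neither a bound site nor a cause.

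The promoters of 6 members are given 5' to 3' on the strand of the gene, with each ACGTG or GCGTG of either strand in capitals. Slc2a1 (chr5:138002272-138002571, plus strand), Bnip3 (chr1:203154913-203155212, minus strand) and Pdk1 (chr3:77113264-77113563, plus strand) are shown as members with 4 matches each whose RNA was lower in OVX than in Sham. Slc16a1, which is not shown, also had 4 matches, and its RNA was higher in OVX. Ldha (chr1:106507842-106508141, plus strand) had the most matches of any member, 6, and its RNA was higher in OVX. Bpgm (chr4:64107027-64107326, plus strand) and Pklr (chr2:176841014-176841313, plus strand), the members that rose most in OVX, had 0 matches. Starts other than the first listed were not examined. Pklr encodes liver and red cell forms, and this window need not be that of the red cell form.
Slc2a1: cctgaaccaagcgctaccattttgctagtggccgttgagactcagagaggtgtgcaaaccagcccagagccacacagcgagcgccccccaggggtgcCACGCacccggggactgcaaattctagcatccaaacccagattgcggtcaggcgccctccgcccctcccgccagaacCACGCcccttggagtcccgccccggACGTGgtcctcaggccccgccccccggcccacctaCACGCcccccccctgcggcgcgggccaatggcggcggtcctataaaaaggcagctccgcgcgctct
Bnip3: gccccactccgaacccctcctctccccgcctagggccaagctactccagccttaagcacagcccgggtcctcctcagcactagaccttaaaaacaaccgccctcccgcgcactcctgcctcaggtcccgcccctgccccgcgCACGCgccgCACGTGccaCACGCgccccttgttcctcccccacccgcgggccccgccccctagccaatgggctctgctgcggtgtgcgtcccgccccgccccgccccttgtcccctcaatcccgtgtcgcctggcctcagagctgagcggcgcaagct
Pdk1: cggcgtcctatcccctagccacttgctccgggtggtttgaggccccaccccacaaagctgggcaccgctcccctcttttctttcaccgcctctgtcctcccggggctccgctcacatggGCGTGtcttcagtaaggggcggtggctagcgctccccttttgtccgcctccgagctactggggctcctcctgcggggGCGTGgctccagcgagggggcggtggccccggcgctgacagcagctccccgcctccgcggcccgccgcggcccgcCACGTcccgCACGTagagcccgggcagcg
Ldha: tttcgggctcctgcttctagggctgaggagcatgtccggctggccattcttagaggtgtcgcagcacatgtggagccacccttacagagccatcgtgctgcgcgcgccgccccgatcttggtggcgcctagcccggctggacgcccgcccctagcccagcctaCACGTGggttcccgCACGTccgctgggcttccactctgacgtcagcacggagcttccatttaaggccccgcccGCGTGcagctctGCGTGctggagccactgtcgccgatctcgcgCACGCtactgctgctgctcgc
Bpgm: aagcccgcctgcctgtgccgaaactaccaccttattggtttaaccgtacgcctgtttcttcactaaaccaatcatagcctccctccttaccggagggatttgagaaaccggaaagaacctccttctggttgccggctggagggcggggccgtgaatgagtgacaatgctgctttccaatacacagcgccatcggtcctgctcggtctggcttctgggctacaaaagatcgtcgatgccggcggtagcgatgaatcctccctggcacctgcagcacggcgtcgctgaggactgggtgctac
Pklr: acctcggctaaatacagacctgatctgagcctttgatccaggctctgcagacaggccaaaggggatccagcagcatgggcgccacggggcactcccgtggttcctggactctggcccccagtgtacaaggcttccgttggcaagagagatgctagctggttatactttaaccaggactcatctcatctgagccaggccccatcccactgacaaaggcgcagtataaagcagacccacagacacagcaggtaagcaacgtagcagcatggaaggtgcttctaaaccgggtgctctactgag

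Set beside the RNA of OVX against Sham, the core was present in the promoters of 10 of 13 members that fell, 2 of 6 with an entry that rose and 5 of 10 with an entry that did not pass. Those that fell and held it were Slc2a1, Pfkp, Aldoc, Pgam1, Ldhb, Pdk1, Hif1a, Egln1, Bnip3 and Ankrd37. Epas1, Egln3 and Vegfa fell without a match in this window. Of all promoters, 42.9% held the core. The OVX changes of Pgam1, Ldhb, Ankrd37, Egln3 and Ldha did not pass in some other settings, given below with each gene.

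Depth, inferred from the steps of the FPKM values, was 34.4 to 61.0 per library in units of 1000000 reads, which may be read ends. Each library had 19435 to 20845 genes above 0. Mitochondrial genes held 11.2% to 35.9% of the summed FPKM, with P 2 highest. The makeup of the femurs differed between groups and within them. The mean log2(FPKM + 1) of 15 erythroid markers was 2.09 to 3.28 in Sham, 8.05 to 8.40 in OVX, 7.05 to 7.25 in J, 5.30 to 6.37 in P and 3.26 to 5.52 in PJ. Bone markers were uneven: Bglap, the osteoblast product osteocalcin, measured 34.0, 6.43 and 881 FPKM in the Sham libraries, and Sost, an osteocyte product, 0.280, 0.432 and 313. As mean log2(FPKM + 1), the osteoblast and osteocyte list stood at 4.37, 3.74 and 7.71 in Sham, 4.00 to 4.88 in OVX, 5.04 to 6.20 in J, 7.79, 4.83 and 8.18 in P and 8.14, 7.56 and 5.17 in PJ, so Sham 1 and Sham 2 were near OVX and Sham 3 stood apart. P 2 held the most muscle RNA (Acta1 at 695 FPKM, with 18.9 and 0.968 in the other P libraries), OVX 3 held muscle RNA that OVX 1 and OVX 2 lacked (0.102, 0.804 and 37.4 in OVX), and PJ 3 had almost no cartilage RNA (Acan at 41.7, 51.6 and 0.0114 in PJ). Counts are therefore also given without Sham 3, OVX 3, P 2 and PJ 3. This choice was made after the data were seen, and the adjusted p of that setting do not account for it. In bulk tissue, fewer cells of a type and less RNA per cell cannot be told apart.

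**Figure D1:**
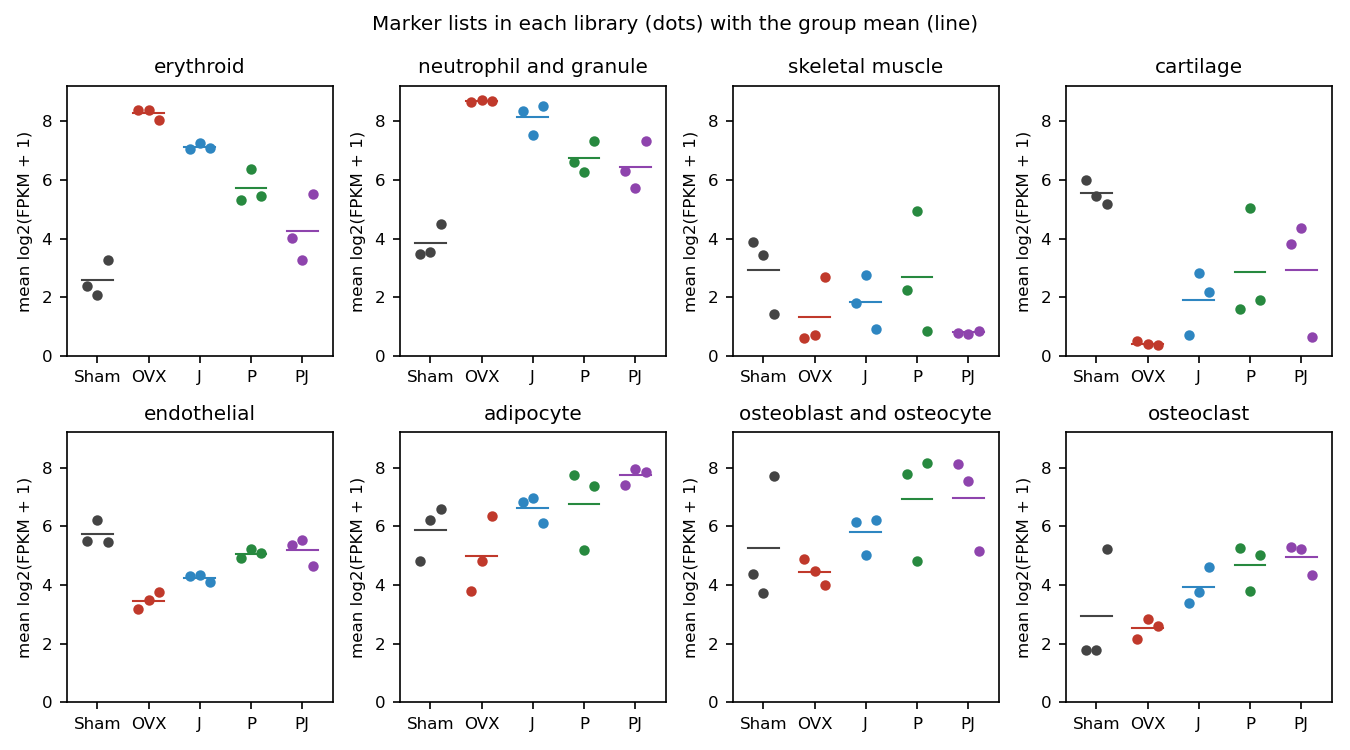
Mean log2(FPKM + 1) of 8 cell type marker lists (vertical axis) in each library (dots) of the 5 groups (horizontal axis), with group means as lines. The erythroid list was lowest in Sham (2.09 to 3.28) and highest in OVX (8.05 to 8.40), while P 2 stood apart in the muscle (4.93) and cartilage (5.06) lists.

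In OVX against Sham, members of the module passed in both directions, as all tested genes did. Of the 31 tested members, 7 rose in OVX against Sham, 13 fell and 11 did not pass an adjusted p of 0.05 in limma, against a background of 25.3% of all tested genes that rose and 28.9% that fell. The share of members that rose was thus near the background. On the log2 scale the members had a median change of -0.36, beside -0.04 over all tested genes. The 7 that rose were Bpgm, Pklr, Slc16a1, Bnip3l, Pfkfb4, Hk1 and Ldha, and the 13 that fell were Slc2a1, Aldoc, Bnip3, Epas1, Vegfa, Hif1a, Pdk1, Ldhb, Pfkp, Egln1, Egln3, Ankrd37 and Pgam1. Without the 4 libraries named above, 6 members rose and 15 fell, and over all 14416 tested genes 3879 rose and 4286 fell.

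Against OVX, J gave 0 higher and 4 lower members, at a background of 3.27% higher and 2.79% lower. P gave 6 higher and 9 lower members, at 24.2% and 15% of all genes, and PJ 9 higher and 11 lower, at 29.8% and 14.6%. Median log2 fold changes of the members were -0.07 in J, -0.16 in P and -0.15 in PJ, and those of all genes 0.11, 0.12 and 0.22. Without the 4 libraries the counts were 5 higher and 6 lower in J, 7 and 11 in P, and 10 and 11 in PJ. Over all genes that setting gave 1920 higher and 927 lower in J, 4434 and 1966 in P, and 4851 and 2362 in PJ, so the calls in J increased over all genes as well. The split depended on scaling: under median-ratio scaling, which shifted the median log2 fold change of all genes by -0.17 in P and -0.25 in PJ, P had 5 higher and 12 lower members and PJ 5 and 14, and in TPM without mitochondrial and globin genes P had 9 and 8. Over all genes, median-ratio scaling turned the split to 2796 higher and 3385 lower in P, 3003 and 3569 in PJ and 421 and 947 in J, from 3486 and 2160, 4298 and 2103, and 471 and 402. In TPM without mitochondrial and globin genes, P had 4108 higher and 1944 lower over all genes. The 3 treatment comparisons share the OVX libraries, and OVX against Sham uses them too, so their directions are not independent and are given side by side.

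**Figure D2:**
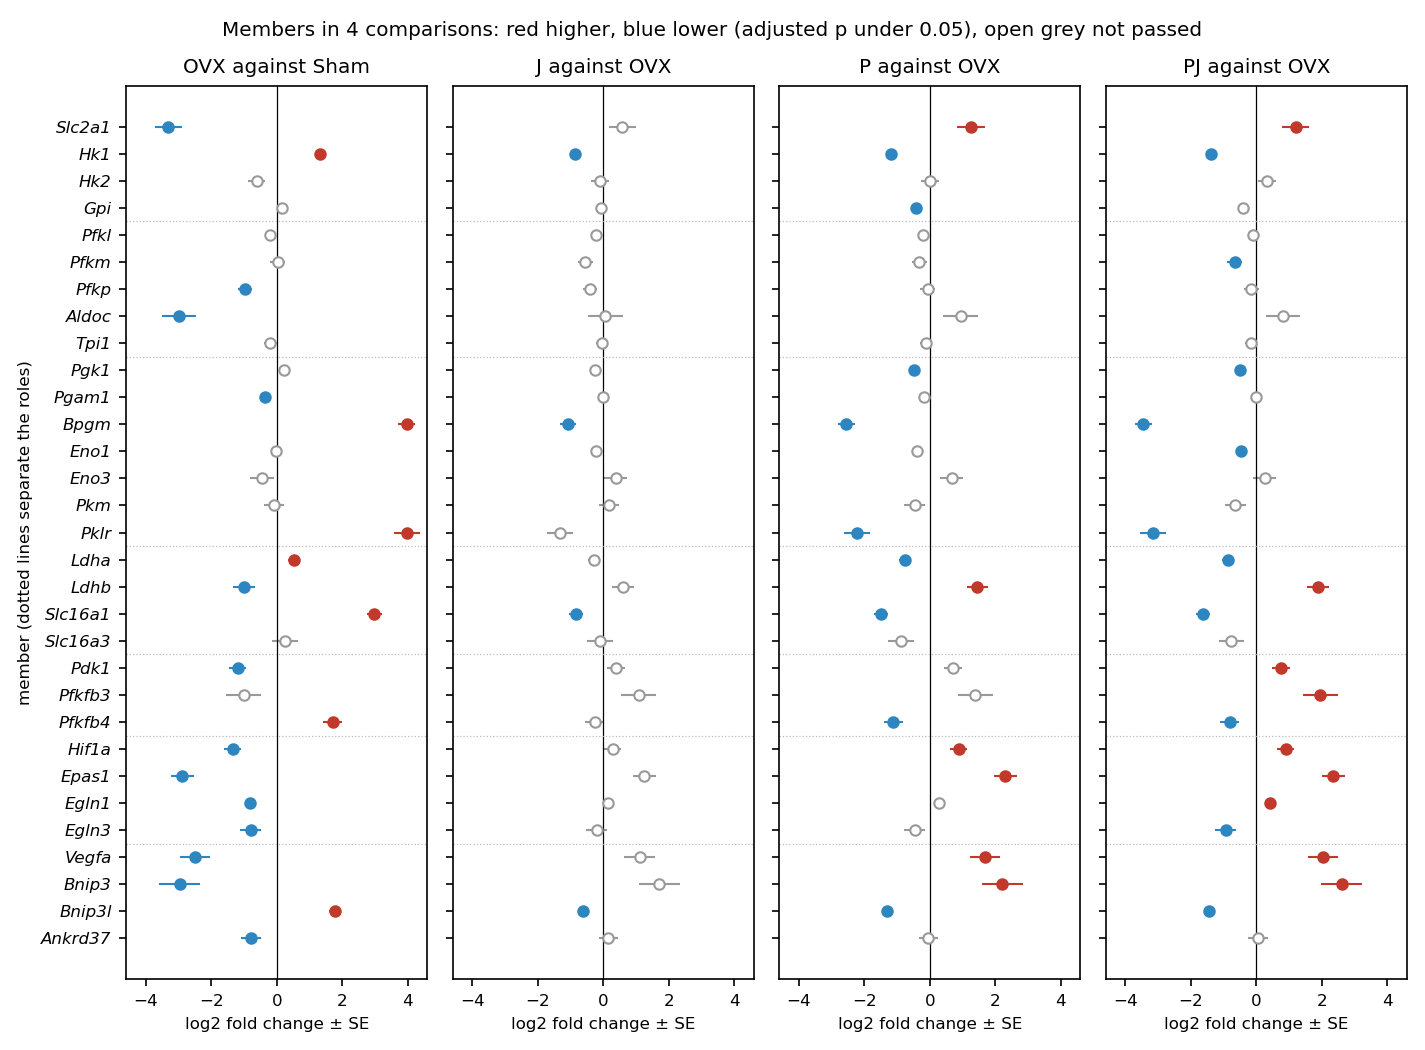
Log2 fold change on the log2(FPKM + 1) scale with its standard error (horizontal axis) for the 31 tested members (rows, ordered by role) in 4 comparisons. Red points passed as higher, blue points as lower, and open grey points did not pass; in OVX against Sham 7 members are red and 13 blue, and in J against OVX 4 are blue and 0 red.

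At glucose entry, the transporter Slc2a1 fell and the hexokinase Hk1 rose in OVX against Sham. Slc2a1 (ENSRNOG00000007284) encodes GLUT1, the glucose transporter of most cells and a textbook target of hypoxia-inducible factors. Its level was 60.1, 33.0 and 28.6 FPKM in Sham, 2.69, 2.75 and 3.56 in OVX, 4.80, 6.55 and 3.84 in J, 4.98, 18.5 and 6.38 in P and 10.6, 10.0 and 4.91 in PJ. Every OVX library lay below every Sham library, and P 2 lay well above the other P libraries. The log2 fold change was -3.31 ± 0.42 (adjusted p = 2.7e-05) in OVX against Sham. Against OVX, Slc2a1 stood at 0.58 (adjusted p = 0.40) in J, 1.26 ± 0.42 (adjusted p = 0.030) in P and 1.20 ± 0.42 (adjusted p = 0.033) in PJ. The rise of Slc2a1 in P was lost without OVX 1, OVX 2 or P 2, with no filter on low values, under median-ratio scaling or when only the groups compared were fitted (adjusted p = 0.052 to 0.11) and measured 0.74 without P 2, and the rise in PJ was lost without OVX 1, OVX 2, PJ 1 or PJ 2, with no filter on low values or under median-ratio scaling (adjusted p = 0.056 to 0.11).

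Hk1 (ENSRNOG00000046891), the hexokinase bound to mitochondria that traps glucose in the cell and the main hexokinase of red cells, moved the other way. Hk1 measured 15.8, 14.4 and 15.7 FPKM in Sham, 40.7, 40.1 and 38.6 in OVX, 22.5, 20.0 and 22.2 in J, 13.8, 18.8 and 18.1 in P and 16.7, 13.5 and 14.0 in PJ. The OVX libraries were above all others and close to each other, while P and PJ overlapped Sham. It rose by 1.33 ± 0.13 (adjusted p = 3.1e-06) on the log2 scale in OVX. Hk1 then fell in all 3 treatments, by log2 fold changes of -0.86 ± 0.13 (adjusted p = 0.0083) in J, -1.20 ± 0.13 (adjusted p = 6.7e-05) in P and -1.38 ± 0.13 (adjusted p = 1.8e-05) in PJ. The J call was lost without OVX 1 (adjusted p = 0.055). Hk2 (ENSRNOG00000006116), the hexokinase of muscle and of cells that respond to insulin or low oxygen, measured 8.38, 5.93 and 7.45 FPKM in Sham, 3.88, 4.68 and 4.44 in OVX, 4.32, 4.23 and 3.34 in J, 5.10, 2.23 and 6.62 in P and 6.64, 6.50 and 4.17 in PJ. Its Sham libraries lay above those of OVX, with a log2 fold change of -0.62 (adjusted p = 0.067) that did not pass. Hk2 passed without P 2 or P 3, in TPM without mitochondrial and globin genes, when only the groups compared were fitted or without Sham 3, OVX 3, P 2 and PJ 3 together (adjusted p = 0.011 to 0.042). Shares here are within the members of a step only, and other forms such as Hk3, Pgam2 and Eno2 are not in the sums. As a share of Hk1 plus Hk2, Hk2 made up 34.7, 29.2 and 32.2% in Sham, 8.71, 10.4 and 10.3% in OVX, 16.1, 17.5 and 13.1% in J, 26.9, 10.6 and 26.8% in P, 28.4, 32.6 and 22.9% in PJ. All OVX shares were below those of every other group, with P 2 next to them (F = 9.76, exact permutation p = 0.00455, adjusted p = 0.0082 over the 5 groups).

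Slc2a3 and Hk3, other forms at this step that are outside the module and were chosen after their values were seen, did not follow Slc2a1. Slc2a3, the transporter GLUT3, averaged 14.5 ± 4.38 FPKM in Sham, 54.6 ± 9.78 in OVX, 39.4 ± 7.48 in J, 19.9 ± 5.20 in P and 19.8 ± 8.44 in PJ (SD, n = 3). The log2 fold change of Slc2a3 was 1.87 ± 0.29 (adjusted p = 0.00016) in OVX, -1.43 ± 0.29 (adjusted p = 0.0023) in P and -1.48 ± 0.29 (adjusted p = 0.0015) in PJ. Hk3, a hexokinase known from white blood cells, averaged 2.80 ± 1.16 FPKM in Sham, 21.3 ± 1.19 in OVX, 19.0 ± 7.18 in J, 6.43 ± 3.50 in P and 8.34 ± 6.47 in PJ (SD, n = 3). The log2 fold change of Hk3 was 2.60 ± 0.45 (adjusted p = 0.00035) in OVX, -1.69 ± 0.45 (adjusted p = 0.011) in P and -1.48 ± 0.45 (adjusted p = 0.019) in PJ. Slc2a3 and Hk3 both rose in OVX and fell in P and PJ, and the J values did not pass. Slc2a4, another glucose transporter outside the module, went the way of Slc2a1 in its means. It averaged 13.7 FPKM in Sham, 8.42 in OVX, 12.3 in J, 21.1 in P and 26.8 in PJ. Its Sham and OVX libraries overlapped, at 10.8 to 19.3 and 5.60 to 12.7 FPKM. Unlike those of Slc2a1, its P and PJ means lay above that of Sham.

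Gpi (ENSRNOG00000023150) encodes glucose phosphate isomerase, the step between both phosphorylations. It measured 149, 138 and 122 FPKM in Sham, 143, 150 and 160 in OVX, 151, 115 and 168 in J, 96.9, 119 and 120 in P and 116, 101 and 124 in PJ, a narrow spread beside that of the transporter. It fell in P, by a log2 fold change of -0.43 (adjusted p = 0.046), a call that was lost without Sham 1, Sham 2, OVX 1, OVX 2, OVX 3, J 1, P 1, P 3 or PJ 1, with no filter on low values, in TPM, in TPM without mitochondrial and globin genes, when only the groups compared were fitted or without Sham 3, OVX 3, P 2 and PJ 3 together (adjusted p = 0.053 to 0.17). In PJ it was -0.41 (adjusted p = 0.052) and passed without J 2, J 3, P 1 or PJ 3, under median-ratio scaling or when only the groups compared were fitted (adjusted p = 0.0065 to 0.049).

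The erythroid markers moved beside Hk1: 15 of 15 passed as higher in OVX against Sham, 1 of 15 as lower in J, and 15 of 15 as lower in P and in PJ, and none was at 0 in any library. The band 3 gene Slc4a1, which encodes the anion exchanger of the red cell membrane, measured 5.66, 3.43 and 11.7 FPKM in Sham, 822, 892 and 686 in OVX, 332, 459 and 309 in J, 83.5, 201 and 101 in P and 30.9, 14.6 and 102 in PJ. Other marrow lists moved too: 10 of 10 tested neutrophil markers and 12 of 12 cell cycle genes passed as higher in OVX, and 9 and 12 as lower in P, 10 and 12 in PJ, and 0 and 4 in J. Over all tested genes, 25.3% passed as higher in OVX, and 2.79%, 15% and 14.6% as lower in J, P and PJ. The neutrophil list stood at 3.47 to 4.50 in Sham and 8.66 to 8.71 in OVX as mean log2(FPKM + 1), with Ltf listed at 0 in P 2. The part of red cell precursors or other marrow cells in the changes of the module was not tested.

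**Figure D3:**
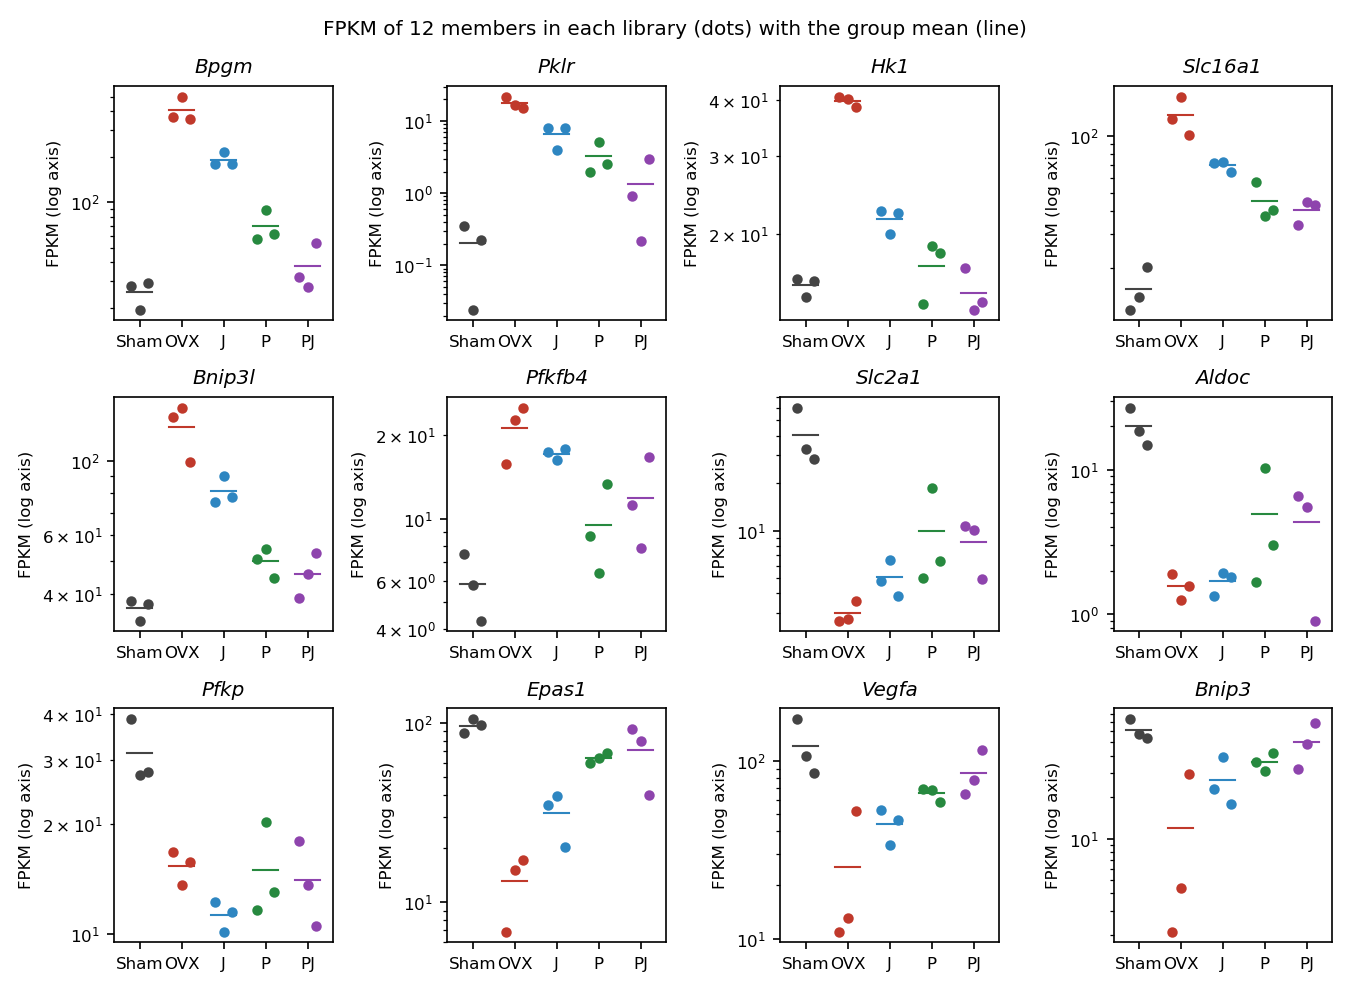
FPKM on a log axis (vertical) of 12 members in each library (dots) of the 5 groups (horizontal), with group means as lines. Bpgm, Pklr, Hk1, Slc16a1 and Bnip3l are highest in the 3 OVX libraries, and Slc2a1, Aldoc and Pfkp in the 3 Sham libraries. Epas1 and Vegfa have their highest mean in Sham, with PJ libraries overlapping. Bnip3 and Vegfa show OVX 3 apart from the other OVX libraries.

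Phosphofructokinase, the committed step, has liver (Pfkl), muscle (Pfkm) and platelet (Pfkp) forms. Pfkp (ENSRNOG00000017163) measured 38.9, 27.3 and 27.8 FPKM in Sham, 16.8, 13.6 and 15.8 in OVX, 12.3, 10.2 and 11.5 in J, 11.6, 20.3 and 13.0 in P and 18.0, 13.6 and 10.5 in PJ. The Sham libraries lay above all others, P 2 being the nearest, and Pfkp fell in OVX by a log2 fold change of -0.97 ± 0.22 (adjusted p = 0.0025). Log2 fold changes were -0.41 (adjusted p = 0.27) in J, -0.07 (adjusted p = 0.82) in P and -0.15 (adjusted p = 0.61) in PJ, none of which passed. Its share of the 3 forms was 46.1, 41.2 and 42.0% in Sham, 30.7, 28.4 and 29.4% in OVX, 28.5, 25.4 and 30.5% in J, 29.1, 36.4 and 30.9% in P, 34.4, 29.3 and 30.6% in PJ. Every Sham share exceeded every other share, and the remaining groups overlapped (F = 14.4, exact permutation p = 0.00358, adjusted p = 0.0082).

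Pfkm (ENSRNOG00000057988) measured 13.3, 12.1 and 8.83 FPKM in Sham, 12.4, 9.91 and 12.5 in OVX, 8.81, 7.03 and 6.93 in J, 6.67, 14.3 and 7.64 in P and 7.64, 6.94 and 6.15 in PJ. P 2, the library with the most muscle RNA, was highest of all 15. OVX 1 and OVX 2, which lacked muscle RNA, held 12.4 and 9.91 FPKM, within the range of Sham. Log2 fold changes came to 0.03 (adjusted p = 0.92) in OVX against Sham and -0.67 (adjusted p = 0.033) in PJ against OVX, and the fall in PJ was lost without OVX 1, OVX 3, PJ 2 or PJ 3, with no filter on low values or in TPM without mitochondrial and globin genes (adjusted p = 0.052 to 0.096). In P it was -0.32 (adjusted p = 0.30) and passed as lower without P 2 or without Sham 3, OVX 3, P 2 and PJ 3 together (adjusted p = 0.017 to 0.020), and in J -0.55 (adjusted p = 0.16), passing without Sham 3, OVX 3, P 2 and PJ 3 together (adjusted p = 0.046). The Pfkm share was 15.8, 18.2 and 13.3% in Sham, 22.5, 20.7 and 23.3% in OVX, 20.5, 17.6 and 18.3% in J, 16.7, 25.6 and 18.1% in P, 14.7, 14.9 and 17.8% in PJ, which did not pass (F = 3.18, exact permutation p = 0.0637, adjusted p = 0.0819) but did without P 1 (adjusted p = 0.041) or P 2 (adjusted p = 0.012). Pfkl (ENSRNOG00000001214) measured 32.1, 26.9 and 29.5 FPKM in Sham, 25.7, 24.4 and 25.3 in OVX, 22.0, 22.8 and 19.4 in J, 21.7, 21.1 and 21.5 in P and 26.5, 26.0 and 17.8 in PJ, and it passed in none of the 4 comparisons. Under median-ratio scaling it passed as lower in P (log2 fold change -0.41) and in PJ (-0.40).

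Aldolase splits fructose bisphosphate, and Aldoc (ENSRNOG00000011452) encodes the form known from brain. Aldoc measured 26.8, 18.4 and 14.8 FPKM in Sham, 1.91, 1.26 and 1.56 in OVX, 1.34, 1.93 and 1.82 in J, 1.68, 10.2 and 2.99 in P and 6.52, 5.50 and 0.901 in PJ. Sham was far above OVX with no overlap, and the fall was -2.99 ± 0.53 (adjusted p = 0.00037) on the log2 scale. P 2 stood above the other P libraries, and PJ 3 lay below all OVX libraries. Fold changes against OVX were 0.07 (adjusted p = 0.95) in J, 0.94 (adjusted p = 0.18) in P and 0.82 (adjusted p = 0.23) in PJ on the log2 scale. The PJ value passed without PJ 3 or without Sham 3, OVX 3, P 2 and PJ 3 together (adjusted p = 0.0016 to 0.022), at 1.45 in both cases. Cartilage markers were also high in P 2 and low in PJ 3: their mean log2(FPKM + 1) was 5.18 to 6.00 in Sham, 0.37 to 0.50 in OVX, 5.06 in P 2 beside 1.61 and 1.90, and 0.64 in PJ 3 beside 3.83 and 4.34. In J the 2 readouts differed, the cartilage list standing at 0.73, 2.81 and 2.19 while Aldoc was at the OVX level. All 9 tested cartilage genes of 13 passed as lower in OVX, 0 passed in J, and 3 and 4 passed as higher in P and PJ. Over all tested genes, 28.9% passed as lower in OVX, and 24.2% and 29.8% as higher in P and PJ. Genes near 0 in OVX could reach the minimum mean only through the other groups, so the fall in OVX was partly set by that filter. Acan and Hapln1 were listed at 0 in OVX 3, Col9a1, Matn1 and Ucma in OVX 2 and OVX 3, and Cnmd in every OVX library. The part of cartilage in the Aldoc values was not tested.

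The row named Aldoa (ENSRNOG00000052802), the aldolase of muscle and red cells and one of the most abundant enzymes of most tissues, held only 0.126 to 0.779 FPKM, or 10 to 56 reads. Such a level in muscle-bearing and red cell-bearing libraries means that this row cannot be read as the level of aldolase A. The share of Aldoc in Aldoa plus Aldoc, 67.5% to 98.4% over the libraries (F = 1.37, exact permutation p = 0.319, adjusted p = 0.319), is therefore not the makeup of the enzyme. Tpi1 (ENSRNOG00000015290), which interconverts the triose phosphates, ranged from 65.1 to 124 FPKM and passed in none of the 4 comparisons, with log2 fold changes of -0.20 in OVX, -0.05 in J, -0.12 in P and -0.16 in PJ.

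In the lower part of the route, the red cell isoforms Bpgm and Pklr had the widest changes of the module in OVX against Sham. Bpgm (ENSRNOG00000010133) encodes bisphosphoglycerate mutase, which makes the hemoglobin ligand bisphosphoglycerate in red cells. Bpgm measured 27.7, 19.4 and 28.9 FPKM in Sham, 366, 501 and 358 in OVX, 179, 215 and 180 in J, 56.9, 88.9 and 61.9 in P and 31.8, 27.2 and 54.0 in PJ. All 3 OVX libraries were above all others, J came next without overlap, P lay below J and PJ below P, and PJ 2 fell within the range of Sham. The mean was 25.3 ± 5.20 in Sham and 408 ± 80.5 in OVX (SD, n = 3). As a log2 fold change, it stood at 3.96 ± 0.26 (adjusted p = 2.2e-07) in OVX against Sham. Against OVX, Bpgm stood at -1.08 ± 0.26 (adjusted p = 0.032) in J, -2.55 ± 0.26 (adjusted p = 6.4e-05) in P and -3.45 ± 0.26 (adjusted p = 1.7e-05) in PJ. The fall in J was lost without OVX 1, OVX 2, J 1 or J 3 or with no filter on low values (adjusted p = 0.054 to 0.13).

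Pgam1 (ENSRNOG00000050585) encodes the phosphoglycerate mutase of most tissues, a relative of Bpgm. It measured 151, 130 and 119 FPKM in Sham, 104, 98.8 and 107 in OVX, 109, 98.8 and 98.4 in J, 93.7, 82.2 and 101 in P and 108, 106 and 89.8 in PJ, with Sham above OVX and the treated groups around OVX. On the log2 scale the fold change was -0.36 (adjusted p = 0.031) in OVX, which was lost without Sham 1, Sham 2, OVX 1, OVX 2 or OVX 3 or under median-ratio scaling (adjusted p = 0.051 to 0.13). In P, Pgam1 was -0.16 (adjusted p = 0.34) and passed under median-ratio scaling (adjusted p = 0.037). Set per length against each other, Bpgm made up 15.5, 13.0 and 19.6% in Sham, 77.9, 83.5 and 77.0% in OVX, 62.0, 68.5 and 64.6% in J, 37.8, 52.0 and 38.1% in P, 22.7, 20.4 and 37.6% in PJ of Bpgm plus Pgam1. The mutase RNA of OVX was thus mostly Bpgm and that of Sham mostly Pgam1, with J between OVX and P (F = 55.3, exact permutation p = 7.14e-07, adjusted p = 3.21e-06; this p is the smallest that the 1401400 partitions can give).

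Pyruvate kinase makes the second ATP-yielding step, and Pklr (ENSRNOG00000020420) encodes its liver and red cell forms. Pklr measured 0.350, 0.0241 and 0.227 FPKM in Sham, 21.9, 16.5 and 15.3 in OVX, 8.04, 4.01 and 8.14 in J, 1.96, 5.19 and 2.55 in P and 0.909, 0.215 and 2.94 in PJ, which in Sham rested on 62, 3 and 28 reads. OVX was highest, all treated libraries were lower, and PJ 2 was level with Sham. Pklr rose by 3.97 ± 0.40 (adjusted p = 4.4e-06) on the log2(FPKM + 1) scale in OVX, a scale that understates changes of low values. Against OVX, Pklr stood at -1.33 ± 0.40 (adjusted p = 0.065) in J, -2.22 ± 0.40 (adjusted p = 0.00095) in P and -3.16 ± 0.40 (adjusted p = 7.1e-05) in PJ. The J value did not pass, but did without P 2, PJ 2 or PJ 3, under median-ratio scaling, when only the groups compared were fitted or without Sham 3, OVX 3, P 2 and PJ 3 together (adjusted p = 0.016 to 0.047). Pkm (ENSRNOG00000011329), the form of muscle and most growing cells, measured 74.0, 59.5 and 48.8 FPKM in Sham, 57.7, 54.4 and 57.0 in OVX, 66.8, 44.7 and 85.0 in J, 30.2, 68.1 and 32.2 in P and 35.0, 27.9 and 47.1 in PJ. It passed in none of the 4 comparisons. In P it passed as lower without P 2 or without Sham 3, OVX 3, P 2 and PJ 3 together (adjusted p = 0.026 to 0.030), and in PJ without P 2, under median-ratio scaling, when only the groups compared were fitted or without Sham 3, OVX 3, P 2 and PJ 3 together (adjusted p = 0.027 to 0.048). The Pklr share of Pkm plus Pklr was 0.471, 0.04 and 0.463% in Sham, 27.5, 23.3 and 21.1% in OVX, 10.7, 8.23 and 8.74% in J, 6.10, 7.08 and 7.35% in P, 2.53, 0.764 and 5.88% in PJ. OVX stood apart from every group, and all treated libraries were above Sham (F = 65.1, exact permutation p = 7.14e-07, adjusted p = 3.21e-06; again the smallest p possible).

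Enolase makes phosphoenolpyruvate. Eno1 (ENSRNOG00000017895), the form of most tissues, measured 72.5, 61.8 and 67.3 FPKM in Sham, 67.7, 60.5 and 70.8 in OVX, 59.7, 46.7 and 63.8 in J, 44.0, 59.6 and 48.5 in P and 52.2, 44.3 and 46.9 in PJ. Its level is uncertain, because near-identical pseudogene rows held sizeable values: Eno1-ps1 16.0 to 72.6 FPKM and Eno1-ps20 23.3 to 45.7. Eno1 fell in PJ by a log2 fold change of -0.46 (adjusted p = 0.022), which was lost without OVX 1, OVX 3 or PJ 2, in TPM or without Sham 3, OVX 3, P 2 and PJ 3 together (adjusted p = 0.066 to 0.079). In P it was -0.39 (adjusted p = 0.053) and passed without J 2 or P 2 or under median-ratio scaling (adjusted p = 0.017 to 0.035).

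Eno3 (ENSRNOG00000004078), the enolase of muscle, measured 20.8, 18.2 and 9.30 FPKM in Sham, 10.3, 8.98 and 14.0 in OVX, 13.8, 16.8 and 12.9 in J, 13.8, 32.8 and 12.4 in P and 11.6, 10.9 and 18.0 in PJ. P 2 was highest, and the groups overlapped. It passed in none of the 4 comparisons (log2 fold changes -0.45 in OVX, 0.37 in J, 0.66 in P and 0.25 in PJ). Without Sham 3, OVX 3, P 2 and PJ 3 together it passed as lower in OVX (log2 fold change -0.95, adjusted p = 0.00067) and higher in J (0.54, adjusted p = 0.029). In muscle markers, however, Sham 3 was the lowest Sham library (1.41) and OVX 3 the highest OVX library (2.69). Leaving them out thus widens a difference in muscle RNA by choice, and these adjusted p do not account for that. The Eno3 share of Eno1 plus Eno3 was 22.3, 22.7 and 12.1% in Sham, 13.2, 12.9 and 16.5% in OVX, 18.8, 26.5 and 16.8% in J, 23.9, 35.5 and 20.3% in P, 18.2, 19.8 and 27.7% in PJ and did not pass (F = 1.95, exact permutation p = 0.175, adjusted p = 0.197). Over all tested genes, 28.9% passed as lower in OVX and 24.2% as higher in P. Of 15 matched muscle markers, 14 were tested, and 2 passed as lower in OVX, 0 in J and PJ, and 1 as higher in P. Their mean log2(FPKM + 1) was 1.41 to 3.89 in Sham, 0.61 to 2.69 in OVX, 0.91 to 2.76 in J, 0.87 to 4.93 in P and 0.76 to 0.86 in PJ, and Myh7 was listed at 0 in every PJ library. The creatine kinase gene Ckm, a muscle marker, measured 38.2, 30.3 and 1.73 FPKM in Sham, 0.119, 0.275 and 9.38 in OVX, 3.70, 14.8 and 0.0144 in J, 6.35, 69.0 and 0.467 in P and 0.0264, 0.136 and 0.110 in PJ. The part of muscle in the Eno3 and Pfkm values was not tested.

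Pgk1 (ENSRNOG00000058249), phosphoglycerate kinase, makes the first ATP of the lower route. It measured 119, 112 and 118 FPKM in Sham, 136, 142 and 133 in OVX, 131, 102 and 111 in J, 105, 88.5 and 98.9 in P and 112, 96.6 and 85.5 in PJ. OVX lay above Sham, by 0.23 (adjusted p = 0.16) on the log2 scale, which did not pass, but it passed under median-ratio scaling at 0.32 (adjusted p = 0.034). It fell in P by -0.49 (adjusted p = 0.011) and in PJ by -0.49 (adjusted p = 0.0099) as log2 fold changes, both lost in TPM (adjusted p = 0.058 and 0.12). By role, 3 of the 7 tested members of the lower route passed as lower in P and 4 in PJ, 0 passed as higher in either, and 2 rose and 1 fell in OVX. Over all tested genes 15% passed as lower in P and 14.6% in PJ, and in OVX 25.3% passed as higher and 28.9% as lower.

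Of the lactate genes, Ldha and the transporter Slc16a1 rose and Ldhb fell in OVX. Ldha (ENSRNOG00000013009) and Ldhb (ENSRNOG00000013000) encode the subunits of lactate dehydrogenase, the first favoured in muscle and under low oxygen and the second in heart and oxidative cells. Ldha measured 109, 93.8 and 93.9 FPKM in Sham, 141, 132 and 154 in OVX, 128, 95.0 and 133 in J, 78.5, 110 and 68.8 in P and 75.4, 70.9 and 88.9 in PJ. OVX lay above Sham and above P and PJ without overlap. Its log2 fold change was 0.52 ± 0.18 (adjusted p = 0.028) in OVX. Against OVX, Ldha stood at -0.27 (adjusted p = 0.37) in J, -0.75 ± 0.18 (adjusted p = 0.0063) in P and -0.86 ± 0.18 (adjusted p = 0.0024) in PJ. The OVX call of Ldha was lost without Sham 2, Sham 3, OVX 1 or OVX 3, in TPM without mitochondrial and globin genes or without Sham 3, OVX 3, P 2 and PJ 3 together (adjusted p = 0.064 to 0.10).

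Ldhb measured 27.8, 64.9 and 62.2 FPKM in Sham, 17.6, 25.3 and 30.0 in OVX, 43.6, 43.2 and 25.3 in J, 78.0, 46.9 and 81.6 in P and 82.2, 98.7 and 89.7 in PJ. Sham 1 was level with OVX, while all P and PJ libraries lay above OVX. In log2 terms the fold change was -1.0 ± 0.33 (adjusted p = 0.023) in OVX. Against OVX, Ldhb stood at 0.59 (adjusted p = 0.29) in J, 1.45 ± 0.33 (adjusted p = 0.0044) in P and 1.88 ± 0.33 (adjusted p = 0.00073) in PJ. The OVX call of Ldhb was lost without Sham 2, Sham 3 or OVX 1, when only the groups compared were fitted or without Sham 3, OVX 3, P 2 and PJ 3 together (adjusted p = 0.053 to 0.098). The Ldhb share of the pair was 20.3, 40.9 and 39.9% in Sham, 11.0, 16.1 and 16.3% in OVX, 25.4, 31.3 and 16.0% in J, 49.8, 29.9 and 54.2% in P, 52.2, 58.2 and 50.2% in PJ. Each PJ share exceeded those of OVX, J and Sham, and P 2 was the lowest P library (F = 9.35, exact permutation p = 0.00454, adjusted p = 0.0082).

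Monocarboxylate transporters carry lactate across the membrane. Slc16a1 (ENSRNOG00000019996) encodes MCT1, the transporter of red cells and many other cells, and measured 12.0, 14.1 and 20.1 FPKM in Sham, 122, 161 and 101 in OVX, 71.9, 72.4 and 64.4 in J, 56.6, 37.7 and 40.5 in P and 33.7, 44.4 and 43.1 in PJ. OVX was highest, J next, and Sham lowest, with no overlap between these 3 groups. It rose by 2.98 ± 0.22 (adjusted p = 4.7e-07) on the log2 scale in OVX. Slc16a1 fell by log2 fold changes of -0.85 ± 0.22 (adjusted p = 0.040) in J, -1.49 ± 0.22 (adjusted p = 0.00028) in P and -1.62 ± 0.22 (adjusted p = 0.00011) in PJ. The J call was lost without Sham 2, OVX 1, OVX 2, J 1, J 2, J 3 or P 3, with no filter on low values or in TPM (adjusted p = 0.052 to 0.16).

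Slc16a3 (ENSRNOG00000036677) encodes MCT4, the exporter of glycolytic cells and a known target of hypoxia-inducible factors. It measured 9.26, 4.18 and 5.91 FPKM in Sham, 4.85, 6.17 and 13.6 in OVX, 8.29, 7.53 and 5.31 in J, 1.84, 5.21 and 4.56 in P and 4.89, 2.56 and 4.94 in PJ and passed in none of the 4 comparisons, its highest library being OVX 3. The Slc16a3 share of both transporters was 43.6, 22.9 and 22.7% in Sham, 3.83, 3.70 and 11.8% in OVX, 10.3, 9.43 and 7.61% in J, 3.15, 12.1 and 10.1% in P, 12.7, 5.44 and 10.3% in PJ. Sham stood above every other group, which overlapped each other (F = 6.82, exact permutation p = 0.00843, adjusted p = 0.0126). In all, 6 of the 9 shares passed after adjustment over the 9.

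**Figure D4:**
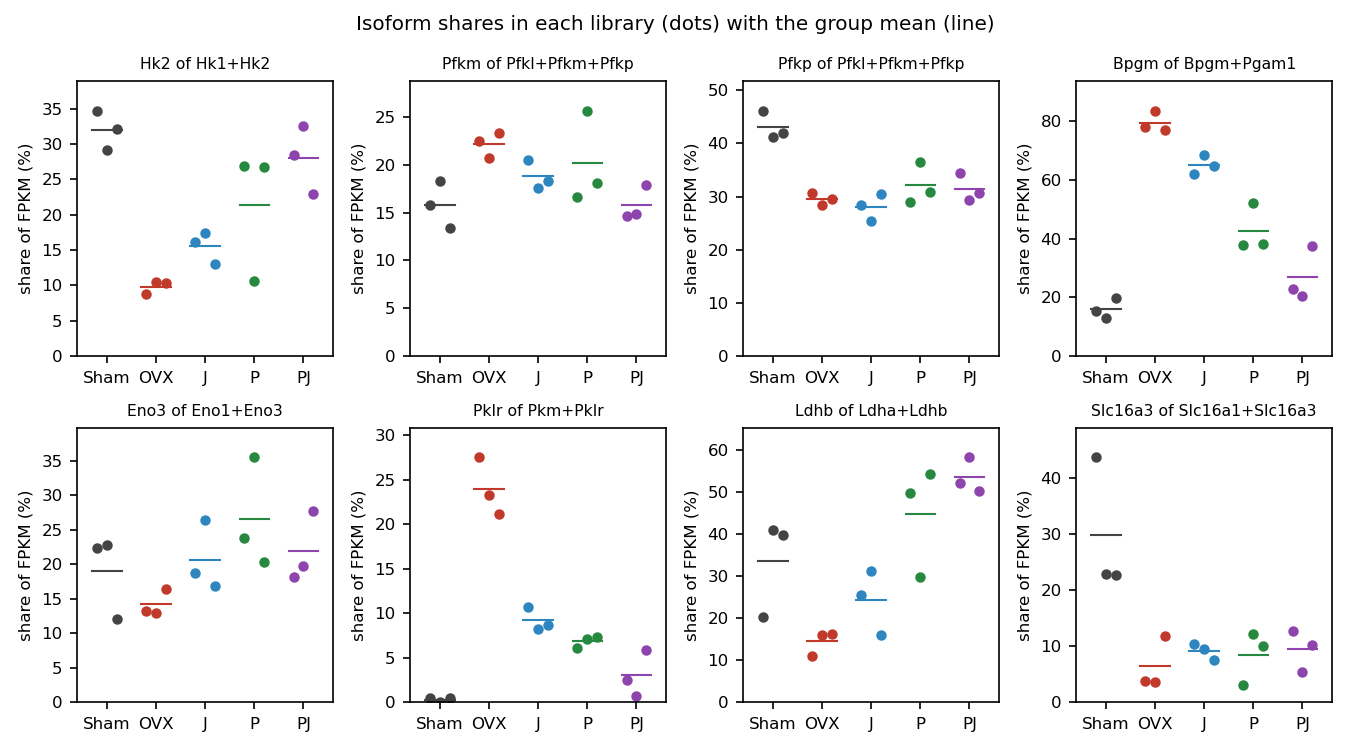
Share (%) of 1 isoform in the summed FPKM of the module members of that step (vertical axis) in each library (dots) of the 5 groups (horizontal axis), with group means as lines, for 8 of the 9 shares. The Bpgm share was 13.0% to 19.6% in Sham and 77.0% to 83.5% in OVX, and the Pklr share was highest in OVX at 21.1% to 27.5%.

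Of the kinases that set the rate of the route, Pfkfb4 rose and Pdk1 fell in OVX. Pfkfb4 (ENSRNOG00000020656) and Pfkfb3 (ENSRNOG00000018911) make fructose bisphosphate of the signalling kind, the activator of phosphofructokinase. Pfkfb4 measured 7.49, 5.76 and 4.30 FPKM in Sham, 15.8, 22.8 and 25.2 in OVX, 17.4, 16.3 and 17.9 in J, 8.71, 6.38 and 13.3 in P and 11.2, 7.83 and 16.7 in PJ. It was higher in every OVX library than in every Sham library, and rose by 1.70 ± 0.29 (adjusted p = 0.00027) on the log2 scale. Against OVX, log2 fold changes were -0.27 (adjusted p = 0.59) in J, -1.12 ± 0.29 (adjusted p = 0.0085) in P and -0.82 ± 0.29 (adjusted p = 0.034) in PJ, the last lost without OVX 2, OVX 3, PJ 1 or PJ 2, with no filter on low values, in TPM or when only the groups compared were fitted (adjusted p = 0.055 to 0.15).

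Pfkfb3, the form raised by low oxygen and abundant in fat and vessels, measured 22.9, 17.4 and 20.6 FPKM in Sham, 5.59, 6.64 and 21.9 in OVX, 27.6, 22.6 and 15.0 in J, 40.8, 10.9 and 39.8 in P and 52.4, 50.0 and 23.8 in PJ. OVX 3 stood with Sham and apart from OVX 1 and OVX 2, and P 2 apart from the other P libraries. The log2 fold change was -1.01 (adjusted p = 0.13) in OVX. Against OVX, Pfkfb3 stood at 1.08 (adjusted p = 0.23) in J, 1.38 (adjusted p = 0.056) in P and 1.96 ± 0.53 (adjusted p = 0.010) in PJ. It passed as lower in OVX without OVX 3 or without Sham 3, OVX 3, P 2 and PJ 3 together (adjusted p = 0.00060 to 0.020), as higher in J without Sham 3, OVX 3, P 2 and PJ 3 together (adjusted p = 0.0040), and as higher in P without OVX 3, P 2 or PJ 3, in TPM without mitochondrial and globin genes or without Sham 3, OVX 3, P 2 and PJ 3 together (adjusted p = 0.00011 to 0.048). The values without the 4 libraries were -1.56 in OVX, 1.64 in J and 2.54 in P. Within groups, adipocyte markers followed Pfkfb3 in OVX and P but not in PJ or Sham. Their mean log2(FPKM + 1) was 3.78, 4.82 and 6.35 in OVX 1, 2 and 3, and 5.21 in P 2 beside 7.74 and 7.39. In J it was 6.83, 6.96 and 6.13, also lowest in the library with the least Pfkfb3. In PJ it was 7.40, 7.97 and 7.86, although PJ 3 held the least Pfkfb3 of PJ. In Sham 1, which held the most Pfkfb3 of Sham, it was 4.81, below Sham 2 (6.23) and Sham 3. Of the adipocyte markers, 10 of 10 passed as higher in PJ, 3 in P, and 0 in J and in OVX against Sham, and none was at 0. Over all tested genes, 29.8% passed as higher in PJ and 24.2% in P. The part of fat in these values was not tested.

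Pdk1 (ENSRNOG00000001517) encodes a kinase that shuts pyruvate out of the mitochondria. It measured 23.5, 15.5 and 15.8 FPKM in Sham, 5.09, 7.68 and 9.55 in OVX, 8.28, 14.2 and 7.79 in J, 9.52, 11.8 and 16.7 in P and 12.7, 14.4 and 11.6 in PJ, with Sham above OVX. It fell by -1.20 ± 0.27 (adjusted p = 0.0022) as a log2 fold change in OVX and rose by 0.75 ± 0.27 (adjusted p = 0.039) in PJ, a call that was lost without OVX 1, OVX 2, PJ 1 or PJ 2, with no filter on low values or under median-ratio scaling (adjusted p = 0.061 to 0.18), at 0.48 under median-ratio scaling. In P it was 0.70 (adjusted p = 0.056) and passed without OVX 3, J 2 or P 1 or in TPM without mitochondrial and globin genes (adjusted p = 0.036 to 0.040), and in J it was 0.38 (adjusted p = 0.39).

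The 4 tested members that encode the factors and their hydroxylases each passed as lower in OVX, beside 28.9% of all tested genes, and the call of Egln3 was lost in many settings. Epas1 (ENSRNOG00000021318) encodes the alpha subunit HIF2A, which is abundant in vessel walls. Epas1 measured 87.9, 106 and 97.4 FPKM in Sham, 6.85, 15.1 and 17.3 in OVX, 35.0, 39.5 and 20.4 in J, 60.2, 64.0 and 68.5 in P and 92.5, 79.6 and 39.6 in PJ. OVX lay below every other group, J came next, and P lay below Sham without overlap. The log2 fold change of Epas1 was -2.89 ± 0.35 (adjusted p = 2.1e-05) in OVX. Against OVX, Epas1 stood at 1.25 ± 0.35 (adjusted p = 0.054) in J, 2.30 ± 0.35 (adjusted p = 0.00036) in P and 2.35 ± 0.35 (adjusted p = 0.00023) in PJ. The J value passed without OVX 3 or PJ 3, with a pseudocount of 0.1, with a minimum mean of 5 FPKM, in TPM without mitochondrial and globin genes or without Sham 3, OVX 3, P 2 and PJ 3 together (adjusted p = 0.018 to 0.049).

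Hif1a (ENSRNOG00000008292) encodes HIF1A, the alpha subunit present in nearly all cells, whose activity is set mainly through protein stability. Hif1a measured 58.5, 58.2 and 52.0 FPKM in Sham, 16.9, 21.2 and 27.3 in OVX, 26.8, 33.3 and 20.2 in J, 37.5, 41.8 and 41.0 in P and 46.8, 54.0 and 26.2 in PJ. All treated libraries and all OVX libraries but PJ 2 were below Sham. The log2 fold change of Hif1a was -1.35 ± 0.25 (adjusted p = 0.00054) in OVX. Against OVX, Hif1a stood at 0.28 (adjusted p = 0.51) in J, 0.87 ± 0.25 (adjusted p = 0.015) in P and 0.89 ± 0.25 (adjusted p = 0.012) in PJ. The rise in P was lost without OVX 1 (adjusted p = 0.070), and that in PJ without OVX 1 or PJ 2, under median-ratio scaling or when only the groups compared were fitted (adjusted p = 0.051 to 0.074).

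Egln1 (ENSRNOG00000063609) encodes PHD2, the main oxygen-sensing hydroxylase, and measured 24.7, 22.0 and 21.1 FPKM in Sham, 12.2, 13.3 and 11.5 in OVX, 12.8, 15.2 and 12.9 in J, 14.5, 15.1 and 15.9 in P and 16.3, 18.2 and 15.6 in PJ. It fell by -0.82 ± 0.11 (adjusted p = 5.6e-05) on the log2 scale in OVX without overlap and rose in PJ by 0.41 ± 0.11 (adjusted p = 0.011), which under median-ratio scaling was 0.14 and did not pass (adjusted p = 0.45). In P it was 0.28 (adjusted p = 0.067) and passed in TPM without mitochondrial and globin genes (adjusted p = 0.041). Egln3 (ENSRNOG00000005053), a hydroxylase that is itself a target of the factors, ranged from 3.61 to 26.7 FPKM. As log2 fold changes, it fell by -0.80 (adjusted p = 0.047) in OVX and further, by -0.94 (adjusted p = 0.029) against OVX, in PJ. The first was lost without Sham 1, OVX 1, OVX 2, OVX 3, J 1, J 2, J 3, PJ 1 or PJ 2, with a pseudocount of 0.1, with no filter on low values or under median-ratio scaling (adjusted p = 0.053 to 0.21) and was -0.50 without Sham 1, and the second was lost without OVX 1, OVX 2, PJ 1 or PJ 2 (adjusted p = 0.066 to 0.098). In P it was -0.47 (adjusted p = 0.27) and passed as lower without P 2 or without Sham 3, OVX 3, P 2 and PJ 3 together (adjusted p = 0.017 to 0.020).

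Endothelial markers moved beside Epas1 and Hif1a. Of 9 tested, 9 passed as lower in OVX, 2 as higher in J, and 9 as higher in P and in PJ. Over all tested genes, 28.9% passed as lower in OVX, and 3.27%, 24.2% and 29.8% as higher in J, P and PJ. Cartilage markers fell in OVX too (9 of 9 tested), and 3 of them passed as higher in P and 4 in PJ. The next values are those of the endothelial list. The mean log2(FPKM + 1) of the endothelial markers was 5.47 to 6.21 in Sham, 3.17 to 3.76 in OVX, 4.10 to 4.34 in J, 4.91 to 5.22 in P and 4.66 to 5.53 in PJ, and none was at 0. The part of vessels in these values was not tested.

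Of the targets of the factors, Vegfa, Bnip3 and Ankrd37 fell and Bnip3l rose in OVX. Vegfa (ENSRNOG00000019598), the angiogenic factor, measured 172, 107 and 85.7 FPKM in Sham, 10.9, 13.0 and 52.3 in OVX, 52.8, 33.5 and 46.7 in J, 69.3, 68.7 and 58.6 in P and 65.0, 77.6 and 114 in PJ. Sham lay above OVX, in which OVX 3 was well above OVX 1 and OVX 2 and within the range of J. As a log2 fold change, it stood at -2.50 ± 0.46 (adjusted p = 0.00053) in OVX. Against OVX, Vegfa stood at 1.10 (adjusted p = 0.16) in J, 1.68 ± 0.46 (adjusted p = 0.012) in P and 2.02 ± 0.46 (adjusted p = 0.0037) in PJ. The rise in P was lost without OVX 1 or OVX 2 or when only the groups compared were fitted (adjusted p = 0.057 to 0.062). J passed as higher without OVX 3 or without Sham 3, OVX 3, P 2 and PJ 3 together (adjusted p = 0.0039 to 0.011), at 1.79 in both cases.

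The paralogs Bnip3 and Bnip3l, both mitophagy receptors known as targets of the factors, went opposite ways. Bnip3 (ENSRNOG00000017243) measured 74.1, 57.3 and 53.7 FPKM in Sham, 2.11, 4.36 and 29.5 in OVX, 22.9, 38.9 and 17.7 in J, 35.9, 30.7 and 42.1 in P and 31.8, 48.3 and 69.2 in PJ. OVX 3 was again far above the other OVX libraries and overlapped J. Bnip3 fell by -2.96 ± 0.63 (adjusted p = 0.0014) as a log2 fold change in OVX. Against OVX, Bnip3 stood at 1.71 ± 0.63 (adjusted p = 0.12) in J, 2.21 ± 0.63 (adjusted p = 0.014) in P and 2.60 ± 0.63 (adjusted p = 0.0051) in PJ. The rise of Bnip3 in P was lost without OVX 1 or OVX 2 or when only the groups compared were fitted (adjusted p = 0.060 to 0.074), and the value in J passed without OVX 3 or without Sham 3, OVX 3, P 2 and PJ 3 together (adjusted p = 0.0035 to 0.0064), at 2.68 in both cases.

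Bnip3l (ENSRNOG00000009820), also called Nix, clears mitochondria from maturing red cells. It measured 38.1, 33.1 and 37.1 FPKM in Sham, 136, 145 and 99.4 in OVX, 75.2, 90.5 and 77.9 in J, 50.9, 54.3 and 44.7 in P and 38.9, 45.7 and 53.1 in PJ. OVX was highest without overlap, followed by J, then P and PJ, with Sham lowest. On the log2 scale the fold change was 1.77 ± 0.16 (adjusted p = 2.2e-06) in OVX. Against OVX, Bnip3l stood at -0.62 ± 0.16 (adjusted p = 0.041) in J, -1.31 ± 0.16 (adjusted p = 0.00011) in P and -1.44 ± 0.16 (adjusted p = 3.5e-05) in PJ. The J call was lost without Sham 1, Sham 2, OVX 1, OVX 2, J 1, J 3, P 1 or PJ 2, with no filter on low values, in TPM without mitochondrial and globin genes or when only the groups compared were fitted (adjusted p = 0.052 to 0.16). Ankrd37 (ENSRNOG00000031335), a small ankyrin-repeat target of the factors, ranged from 0.521 to 3.48 FPKM. It fell in OVX by a log2 fold change of -0.80 (adjusted p = 0.038), which was lost without Sham 1, Sham 3, OVX 1, OVX 2 or OVX 3, with a pseudocount of 0.1, with no filter on low values or under median-ratio scaling (adjusted p = 0.056 to 0.12), and it passed in no treatment.

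Among the treatments, P against J gave 0 higher and 2 lower members, at a background of 4.37% and 3.05%. These were Bpgm, with a log2 fold change of -1.47 (adjusted p = 0.036), and Bnip3l, with -0.69 (adjusted p = 0.037). PJ against J gave 1 higher and 5 lower, at 8.38% and 5.88%. Ldhb was higher, with a log2 fold change of 1.29 (adjusted p = 0.025). The lower members were Bpgm at -2.37 (adjusted p = 0.0040), Pklr at -1.83 (adjusted p = 0.013), Bnip3l at -0.82 (adjusted p = 0.0089), Slc16a1 at -0.78 (adjusted p = 0.034) and Hk1 at -0.52 (adjusted p = 0.020). In PJ against P, 0 members and 0% of all genes passed in either direction in limma, while 2 members, both lower, and 296 genes (2.05%) had an unadjusted p under 0.05. The widest member difference between PJ and P was that of Pklr, -0.94 ± 0.40, followed by Bpgm at -0.90 ± 0.26 on the log2 scale. In TPM the PJ against J counts were 2 higher and 3 lower. Counts in P against J were 0 in fits without Sham 2, OVX 2, J 1, J 3, P 1 or P 3, 1 without J 2 and 4 without P 2 or PJ 3, and in PJ against J they were 2 without J 1 or PJ 2, 3 without J 3 or PJ 1 and 11 without PJ 3. The doses and materials differ between the groups.

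Other genes of the 2 pathways were read from longer lists. These lists were written with earlier results of these data known, so their counts are not independent of the data. Of 29 tested other glycolysis genes (36 listed, 35 with a row), 12 rose and 9 fell in OVX against Sham. Against OVX, 4 rose and 0 fell in J, and 13 rose and 8 fell in P and in PJ. Of 39 tested other hypoxia genes (40 listed), 5 rose and 27 fell in OVX, 2 rose and 0 fell in J, and 23 rose and 4 fell in P and in PJ. The shares over all tested genes were 25.3% higher and 28.9% lower in OVX, 3.27% and 2.79% in J, 24.2% and 15% in P, and 29.8% and 14.6% in PJ. The median log2 fold change of the hypoxia list was -1.54 in OVX, 0.46 in J, 1.00 in P and 1.17 in PJ, and that of the glycolysis list -0.31, 0.09, 0.37 and 0.34.

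By smallest p, the leading genes of these lists were Eno2, Taldo1, Tfrc, Slc2a8, Pdk2 and Pgf. Eno2, the enolase of neurons, averaged 31.6 ± 7.87 FPKM in Sham, 1.32 ± 0.467 in OVX, 4.66 ± 1.56 in J, 12.7 ± 3.08 in P and 11.6 ± 4.27 in PJ (SD, n = 3). It fell by -3.81 ± 0.30 (adjusted p = 7.4e-07) as a log2 fold change in OVX. Eno2 rose against OVX by 1.28 ± 0.30 (adjusted p = 0.030) in J, 2.56 ± 0.30 (adjusted p = 9.2e-05) in P and 2.40 ± 0.30 (adjusted p = 6.6e-05) in PJ. Taldo1, transaldolase of the pentose phosphate route, rose in OVX by 1.95 ± 0.17 (adjusted p = 1.8e-06), from 56.9 ± 7.34 to 222 ± 23.1 FPKM. Against OVX, Taldo1 measured -0.45 ± 0.17 (adjusted p = 0.13) in J, -1.12 ± 0.17 (adjusted p = 0.00037) in P and -1.25 ± 0.17 (adjusted p = 0.00013) in PJ as log2 fold changes, and only the J value did not pass. Tfrc, the transferrin receptor through which red cell precursors take up iron, rose in OVX by 3.57 ± 0.35 (adjusted p = 3.7e-06), from 26.5 ± 18.0 to 284 ± 32.0 FPKM. Against OVX, Tfrc measured -0.97 ± 0.35 (adjusted p = 0.11) in J, -1.58 ± 0.35 (adjusted p = 0.0035) in P and -2.07 ± 0.35 (adjusted p = 0.00051) in PJ as log2 fold changes, and only the J value did not pass.

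Slc2a8, an intracellular hexose transporter, averaged 10.2 ± 1.40 FPKM in Sham, 3.22 ± 0.689 in OVX, 6.99 ± 0.456 in J, 8.80 ± 0.663 in P and 9.79 ± 1.58 in PJ (SD, n = 3). Slc2a8 fell by -1.42 ± 0.15 (adjusted p = 7.5e-06) as a log2 fold change in OVX. Its log2 fold change against OVX was 0.93 ± 0.15 (adjusted p = 0.011) in J, 1.23 ± 0.15 (adjusted p = 0.00012) in P and 1.36 ± 0.15 (adjusted p = 3.5e-05) in PJ. Pdk2, a paralog of Pdk1, averaged 16.1 ± 2.17 FPKM in Sham, 5.51 ± 1.49 in OVX, 11.1 ± 1.03 in J, 13.9 ± 2.39 in P and 15.7 ± 0.926 in PJ (SD, n = 3). It fell by -1.41 ± 0.18 (adjusted p = 2.7e-05) as a log2 fold change in OVX, and Pdk2 rose against OVX by 0.92 ± 0.18 (adjusted p = 0.017) in J, 1.21 ± 0.18 (adjusted p = 0.00028) in P and 1.38 ± 0.18 (adjusted p = 8.3e-05) in PJ. Pgf, an angiogenic relative of Vegfa, averaged 14.1 ± 3.63 FPKM in Sham, 1.08 ± 0.346 in OVX, 4.58 ± 0.910 in J, 8.32 ± 2.54 in P and 9.28 ± 3.61 in PJ (SD, n = 3). It fell by -2.85 ± 0.30 (adjusted p = 6.3e-06) as a log2 fold change in OVX, and Pgf rose against OVX by 1.43 ± 0.30 (adjusted p = 0.021) in J, 2.14 ± 0.30 (adjusted p = 0.00022) in P and 2.25 ± 0.30 (adjusted p = 0.00010) in PJ.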

How the data were processed

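RNA of 15 rat femur libraries was analysed, in 5 groups of 3 taken from the sample titles. The submitters' processing notes name STAR 2.7.11a, fastp 0.23.4, featureCounts 2.0.6 and the build mRatBN7.2. The strand setting was not given in these sources, so genes that overlap on opposite strands cannot be told apart. Near-identical copies cannot be told apart here either, whatever the strand setting. The deposited column whose name ends in count holds FPKM made by the authors, as its values show, and the column headed FPKM held nothing in any of the 15 files. The members and all lists were chosen with earlier results of these data known.

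The log2(FPKM + 1) scale was used, which understates the fold changes of low genes. The 14416 genes with a mean of at least 1 FPKM were fitted over all libraries with limma 3.58.1 in R 4.3.3 (variance trend, 10 residual degrees of freedom, two-sided, Benjamini-Hochberg threshold 0.05). Values after ± are standard errors of the fit unless marked SD. The fit was tested on simulated data. Isoform shares were compared over the 5 groups by an exact permutation F test over all 1401400 partitions, adjusted over 9 shares. Depth was inferred from the step of the FPKM values: 95.21% of 3402 genes gave a whole length within 0.05, and a floor of 3 reads, for counting error alone, lay between 0.0492 and 0.0873 per 1000000 reads.

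Members passing in a main comparison were described library by library, at most 3 per role by smallest p, with all isoforms of a step; of the other pathway genes, the 3 of smallest p per main comparison were named. Promoters came from RefSeq on GRCr8, a build other than that of the files. Alternatives were a pseudocount of 0.1, no filter or a minimum mean of 5 FPKM, TPM with and without mitochondrial and globin genes, median-ratio scaling, a replicate block, a fit restricted to the groups compared, and the omission of each library in turn. Calls lost with the block are given only in the closing section. Leaving out Sham 3, OVX 3, P 2 and PJ 3 together was added after seeing the data.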

Additional observations from a re-analysis of the deposited data

How the results depend on the processing

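Of 59 member changes called in the 4 main comparisons, 35 were called under every alternative and 24 were lost under at least 1, and no alternative reversed a called change. The J calls were the least stable. Members called in J against OVX, 4 as reported, were 1 with no filter, 2 with the replicate block and 11 without Sham 3, OVX 3, P 2 and PJ 3, and 0 (without OVX 1) to 7 (without OVX 3) when 1 library was left out. All genes called there, 873 as reported, were 540 with no filter, 476 in TPM, 1368 under median-ratio scaling, 1357 when only the groups compared were fitted and 2847 without those 4 libraries, and 22 (without OVX 1) to 1559 (without PJ 3) on leaving out 1 library. Members called in P against J, 2 as reported, were 0 with no filter, 1 in TPM, 0 when only the groups compared were fitted, 7 without the 4 libraries and 0 to 4 on leaving out 1. In PJ against J, 6 became 16 without the 4 libraries and 2 to 11 on leaving out 1, and in PJ against OVX, 20 became 13 (without PJ 2) to 21. The cause was not tested.

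Replicate numbers did not pair the libraries: deviations from the group means correlated at -0.41 to 0.49 (median -0.01) between libraries of the same number, over 0.1 in 9 of 30 pairs, so the block shows no weaker effect where a call was lost. With the replicate block, 18, 2, 14 and 19 members were called in OVX against Sham and in J, P and PJ against OVX. The calls lost with the block were Egln3 and Ankrd37 in OVX (adjusted p = 0.0647 and 0.0504), Slc16a1 and Bnip3l in J (0.0611 and 0.055), Gpi in P (0.0542) and Pdk1 in PJ (0.0501).

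Rescaling shifted the median log2 fold change of all genes by over 0.1 under median-ratio scaling (-0.25 in PJ, -0.17 in P and -0.10 in J against OVX, and -0.15 in PJ against J), in TPM (0.13 in PJ against OVX and 0.18 in PJ against J) and in TPM without mitochondrial and globin genes (-0.11 in OVX against Sham).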
